A study of Homo sapiens with 6 samples.

Results

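The MHC class I antigen presentation genes are 9 genes of the 31369 in the deposited count table, found by their symbols: the heavy chains HLA-B, HLA-C and HLA-E, the light chain B2M, the peptide transporter genes TAP1 and TAP2, the loading factor TAPBP, and the inducible proteasome subunits PSMB8 and PSMB9. RNA-seq measured them in 3 control (NC) and 3 overexpression (OE) samples of HK-2, a cell line derived from the proximal tubule of the human kidney. The genotype entries of the labels give wild type for NC and *PPM1K* overexpression for OE, and all 6 samples carry the same treatment entry, chronic kidney disease, and day 10, while in the titles both groups are named as short hairpin samples, against control or against *PPM1K*. The study's methods describe transfection of a *PPM1K* plasmid by lipofection, so NC is taken as control and OE as overexpression. Neither the promoter of the plasmid nor what the NC cells received is given in the sources used here. The paper speaks of the replicates as biological, but no source used here says that they came from separate cultures, so p-values measure only the spread between these samples, and whether that is technical is not known. Counts per sample, summed over genes, were 34635770 to 39850802.

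Almost every nucleated cell shows short peptides of its own proteins on MHC class I molecules, which cytotoxic T cells and natural killer cells inspect. The proteasome cuts cytosolic proteins, the TAP transporter carries the peptides into the endoplasmic reticulum (ER), and a loading complex of tapasin, calreticulin and ERp57 fits them onto a heavy chain paired with beta-2-microglobulin. Interferons raise many of these genes together through factors such as IRF1 and NLRC5, and kidney tubule cells are known to increase class I during inflammation.

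Per-sample values are given in the order of replicates 1, 2 and 3. The targeted gene *PPM1K*, a mitochondrial phosphatase, had 37, 19 and 53 counts in NC against 3294, 3531 and 2919 in OE, so each OE sample was far above each NC sample. NC replicate 2 stood apart from the other samples, with at least 1 count in 26478 genes against 22094 to 22913 in the others. Defining leukocyte markers were near 0 in all samples: the 7 measured of 8 listed summed to 1.14 to 1.59 CPM (counts scaled to library size) in NC and 1.21 to 2.03 in OE, and PTPRC, CD3E and CD14 had at most 0.281 CPM on average in either group. Of the 2 leukocyte markers tested, LAPTM5 was called higher in OE (50%, beside 24.9% of all tested genes) and ITGAM did not pass. LAPTM5 had a log2FC of 1.06 (adjusted p = 0.042 from edgeR), with 7, 6 and 18 counts in NC and 29, 22 and 18 in OE. Of the 12 epithelial and kidney tubule markers, KRT8, KRT18, KRT19, EPCAM and PAX8 were abundant, with 222 to 2159 CPM on average in NC, while the proximal tubule markers LRP2, CUBN and AQP1 had under 1 CPM in each group. At an adjusted p under 0.05, 5 of the 9 tested fell and 1 rose, 66.7% beside 48.6% of all tested genes. Those that fell were KRT8, KRT19, EPCAM, CDH1 and GGT1, and PAX8 rose. The list summed to 3611 to 3977 CPM in NC and 2918 to 3187 in OE. KRT8 was the largest part of this sum, with 2159 CPM on average in NC and 1543 in OE, while KRT18 had a log2FC of 0.02 and did not pass. The 4 endothelial markers summed to 5.06 to 6.42 CPM in NC and 7.04 to 7.98 in OE. Of the 3 tested, 2 were higher in OE, PECAM1 and VWF (66.7%, beside 24.9% of all tested genes). The 4 fibroblast markers summed to 17.6 to 18.9 CPM in NC and 7.51 to 8.15 in OE. Both tested members, COL1A1 and LUM, were lower in OE (100%, beside 23.7% of all tested genes). In bulk samples, fewer cells of a type and less RNA per cell cannot be told apart, and the part of these markers in the results below was not tested.

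All 9 genes were expressed in every sample, and together they took 0.131% to 0.142% of all counts. Levels between genes are compared in the FPKM that the authors deposited. The gene lengths behind it are not given in the sources used here, so the order of genes below holds only on this scale. In NC the mean FPKM was 121 ± 7.46 (SD, n = 3) for HLA-C, 86.8 ± 4.24 (SD, n = 3) for HLA-B, 85.4 ± 4.50 (SD, n = 3) for HLA-E and 48.8 ± 1.92 (SD, n = 3) for B2M. On this scale each heavy chain RNA was above the light chain RNA. In CPM, which is not scaled to length, B2M had 289 in NC, against 328 for HLA-C, 284 for HLA-B and 271 for HLA-E. The canonical GENCODE transcript of B2M has 943 bases, against 1542, 1536 and 2548 for these heavy chains. Whether heavy or light chain RNA stands higher thus depends on the length used. In FPKM, PSMB8 followed with 25.8, then TAPBP with 10.1, PSMB9 with 4.91, TAP1 with 4.28 and TAP2 with 1.13. Neighbours in this order did not overlap between NC samples, except HLA-B with HLA-E and PSMB9 with TAP1. In OE the order was the same, and HLA-B, with 95.7 ± 5.15 (SD, n = 3), no longer overlapped HLA-E, with 70.8 ± 1.85 (SD, n = 3). Of the peptide supply genes, TAP1, TAP2 and PSMB9 had an FPKM under 7 in every sample, while PSMB8 had 23.3 to 28.9. The annotated gene that overlaps TAP2, ENSG00000250264, described below, had a mean FPKM of 23.7 in NC and 33.0 in OE.

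**Figure D1:**
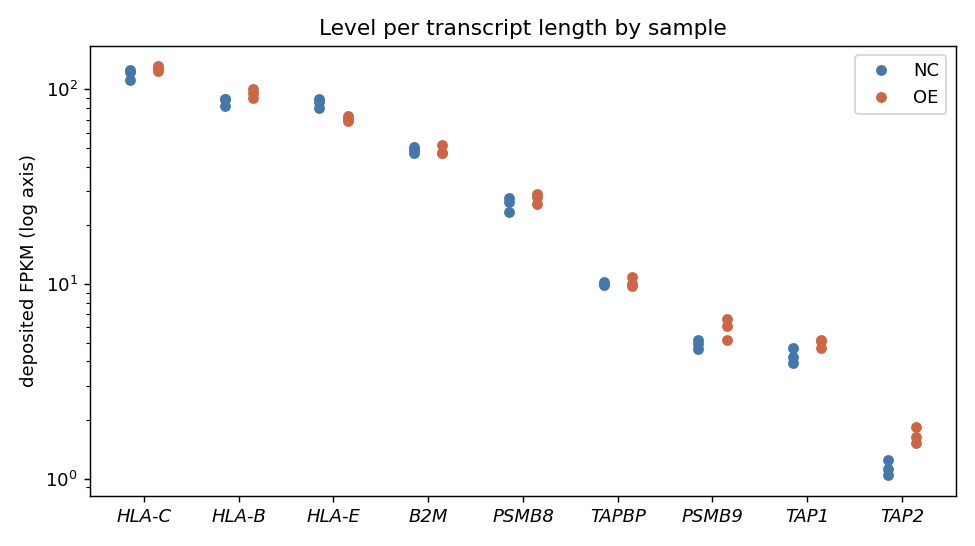
Deposited FPKM of each of the 9 genes, on a log axis, with 1 point per sample and NC beside OE. HLA-C is highest and TAP2 lowest in both groups, and the HLA-E points of OE, 70.8 on average, lie below those of NC, 85.4 on average.

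The question of the comparison between OE and NC is which genes differ in RNA when *PPM1K* is overexpressed. Of the 9 genes, 3 rose in OE, TAP2, PSMB9 and TAP1, and 1 fell, HLA-E, by the quasi-likelihood test of edgeR (p under 0.05 after Benjamini-Hochberg adjustment over 15878 genes). Of all tested genes, 24.9% rose and 23.7% fell by this rule, 48.6% in either direction, so 4 of 9 (44.4%) is near the background and is no result about the group. The largest change was that of TAP2, by 44.6%, and the median log2 fold change (log2FC, OE over NC) of the 9 genes was 0.08, against −0.00 for all tested genes. With the study's further threshold of a fold change above 2 or below 0.5, which 1.73% of tested genes passed upwards and 3.79% downwards, edgeR, DESeq2 and limma each called 0 of the 9, while 5 had an unadjusted p under 0.05 in each. The OE and NC samples did not overlap in CPM in TAP1 and TAP2, both higher in OE, and in HLA-E, which was lower. Among all tested genes OE lay above NC in 28.2% and below it in 27.1%, 55.3% in all, against 3 of these 9.

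**Figure D2:**
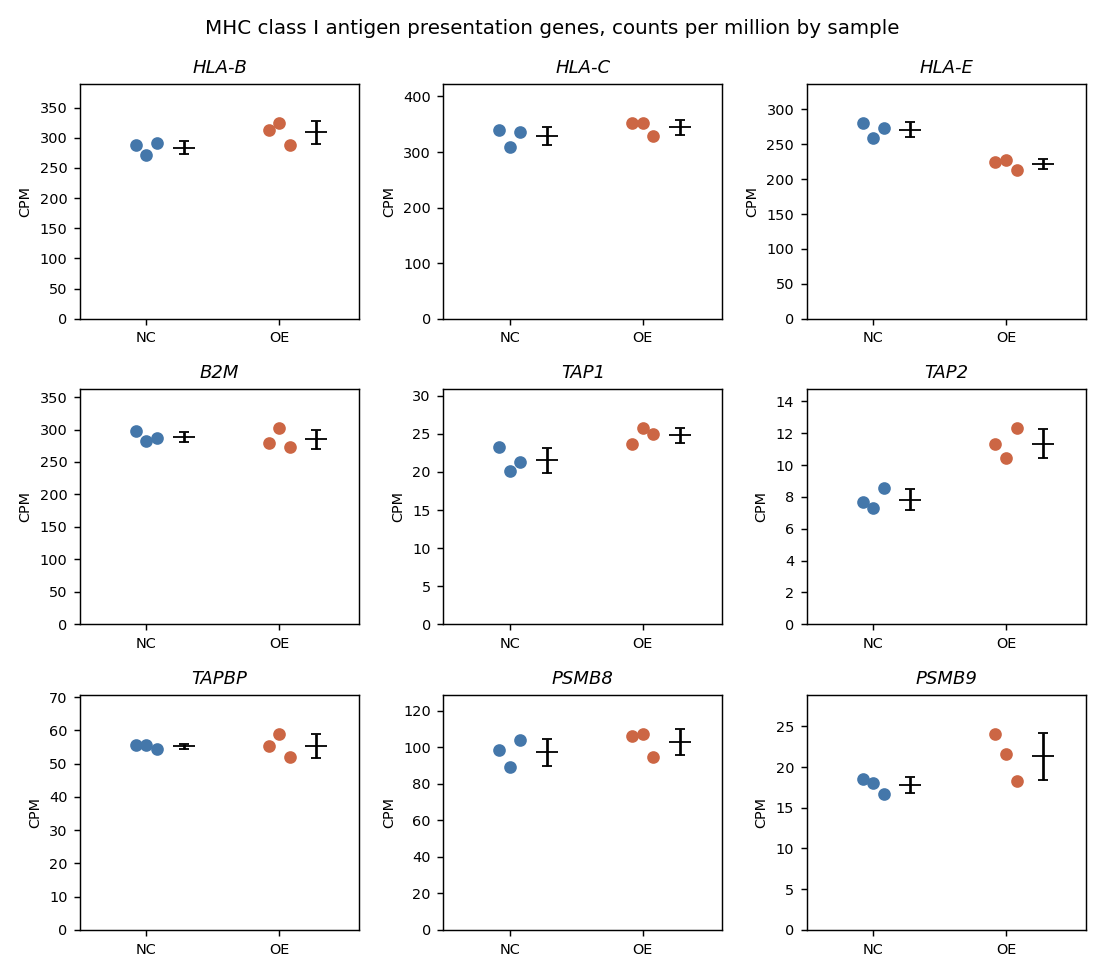
CPM of each gene (vertical axes, from 0, scaled for each panel), with 1 point per sample and the mean ± SD (n = 3) beside each group. TAP2 rose by 44.6% and HLA-E was lower in each OE sample than in each NC sample, while B2M and TAPBP overlapped throughout.

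HLA-E is a nonclassical heavy chain that presents leader peptides of other class I molecules to the CD94/NKG2A receptor of natural killer cells. Its CPM was 280, 259 and 273 in NC and 225, 227 and 213 in OE. Each OE sample was below each NC sample. The log2FC was −0.29 (standard error 0.05, 95% interval −0.40 to −0.18, adjusted p = 6.8e-05 by the quasi-likelihood test of edgeR). It was lower in all 15 alternative fits, with log2FC values from −0.33 to −0.26 and adjusted p-values of at most 0.012, and its log2FC was −0.32 without NC replicate 2. HLA-E (ENSG00000204592.9) is annotated on the plus strand of chromosome 6 at 30489509 to 30494194 (GENCODE release 44, GRCh38) and overlaps no other annotated gene. Here and below, gene IDs carry the version of the deposited counts, which for some genes differs from that of release 44, while positions are those of release 44.

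The classical heavy chains HLA-B and HLA-C, which present peptides to cytotoxic T cells and are read by killer cell receptors, did not pass the test. The CPM of HLA-B was 289, 271 and 291 in NC and 313, 325 and 288 in OE, and OE replicate 3 lay within the NC range. Its log2FC was 0.12 (standard error 0.05, 95% interval 0.01 to 0.23, adjusted p = 0.064 from edgeR), and without OE replicate 3 it was 0.17 with an adjusted p of 0.0082, while over all alternatives the adjusted p ran from 0.0082 to 0.26. HLA-C had 340, 309 and 335 CPM in NC and 353, 352 and 329 in OE, with groups that overlapped. Its log2FC was 0.07 (95% interval −0.04 to 0.18, adjusted p = 0.28 from edgeR). HLA-B (ENSG00000234745.13) is at 31353872 to 31367067 and HLA-C (ENSG00000204525.17) at 31268749 to 31272130, both on the minus strand of chromosome 6. HLA-B overlaps 4 annotated genes, none of them protein-coding, of which MIR6891 and DHFRP2 are on its strand, and HLA-C overlaps none.

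Within each sample, the counts of the 3 heavy chains can be set against each other with no scaling of libraries. HLA-E made up 30.9%, 30.8% and 30.4% of their sum in NC, and 25.3%, 25.1% and 25.6% in OE. The share of HLA-B was 31.8% to 32.3% in NC and 34.7% to 35.9% in OE, and that of HLA-C 36.9% to 37.4% and 39.0% to 39.7%. HLA-E had the smallest share in all 6 samples, and each OE share was below each NC share, as a description with no test.

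B2M (ENSG00000166710.21) encodes beta-2-microglobulin, the invariant light chain of all class I molecules, and lies on chromosome 15, at 44711358 to 44718851, apart from the other 8 genes. Its CPM was 297, 282 and 287 in NC and 280, 302 and 273 in OE. The OE samples held both the highest and the lowest value. The log2FC was −0.02 with a 95% interval of −0.13 to 0.09 (adjusted p = 0.77 from edgeR). The summed count of HLA-B, HLA-C and HLA-E was 3.06 ± 0.0744 (SD, n = 3) times that of B2M in NC, against 3.07 ± 0.0997 (SD, n = 3) times in OE (exact two-sided permutation p = 0.9, where 3 samples against 3 allow no less than 0.1).

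The heavy chain genes are close relatives, and this bears on their counts. The coding sequences of HLA-B and HLA-C in the GENCODE transcripts were 91.6% identical, HLA-B and HLA-E 85.6%, and HLA-C and HLA-E 85.0%. Of all windows of 100 bases in the canonical transcript, 0% of HLA-B, 0.277% of HLA-C and 0.612% of HLA-E matched a transcript of another gene exactly. The authors' alignment allowed mismatches, so these shares cannot show how many reads were counted to a related gene. The authors counted uniquely mapped reads against the reference alleles, and HLA-B and HLA-C vary widely between people, HLA-E much less. Reads of alleles unlike the reference may therefore be missing, or counted to a related gene, in both groups. The alleles of this cell line were not used here, and their part in the levels was not tested.

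TAP1 and TAP2 encode the subunits of the transporter that brings peptides into the ER. TAP1 had 23.2, 20.1 and 21.3 CPM in NC and 23.7, 25.7 and 25.0 in OE, with each OE sample above each NC sample by a small margin. Its log2FC was 0.20 (standard error 0.08, adjusted p = 0.033 from edgeR). This call was lost in 9 of the 15 alternative fits, with an adjusted p of 0.051 in DESeq2, 0.079 in edgeR with upper quartile scaling, 0.13 without NC replicate 2, 0.077 without NC replicate 3, 0.11 without OE replicate 2 and 0.051 without OE replicate 3.

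The CPM of TAP2 was 7.67, 7.27 and 8.57 in NC and 11.3, 10.4 and 12.3 in OE. The groups were well apart. The log2FC was 0.53 (standard error 0.10, 95% interval 0.32 to 0.74, adjusted p = 0.00019 from edgeR), and TAP2 was higher in all 15 alternative fits, with adjusted p-values of at most 0.019, and its log2FC was 0.48 (adjusted p = 0.0015 from edgeR) without NC replicate 2.

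The count of TAP2 is only part of what was read at its place. TAP2 (ENSG00000204267.16) is annotated on the minus strand of chromosome 6 at 32821833 to 32838739, inside another annotated protein-coding gene of the same strand, ENSG00000250264.1, which runs from 32813767 to 32838822 and also covers HLA-DOB. Of the windows of 100 bases in the TAP2 transcript, 34.7% were found in transcripts of ENSG00000250264 too. Both have a row in the table, and the counts were 267, 256 and 308 for TAP2 against 2517, 2282 and 2567 for ENSG00000250264 in NC, and 417, 413 and 447 against 3434, 3771 and 3560 in OE. TAP2 thus held 9.59% to 11.2% of their sum. HLA-DOB, a class II gene, had at most 7 counts in any sample. ENSG00000250264 rose as well, with a log2FC of 0.46 (standard error 0.05, adjusted p = 6.2e-07 from edgeR). With both rows summed, an alternative chosen after these counts had been seen, the log2FC of TAP2 was 0.47 (adjusted p = 4.4e-07 from edgeR). The direction was the same for each row and for their sum, but the FPKM of 1.13 in NC is no measure of all RNA from this place.

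**Figure D3:**
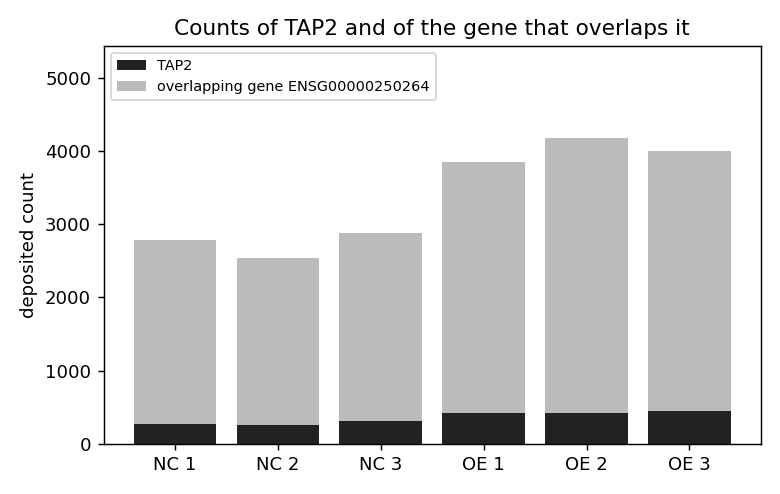
Deposited counts of TAP2 (black) stacked with those of the overlapping gene ENSG00000250264 (grey) in each sample, from 0. TAP2 is 9.59% to 11.2% of each bar, and the OE bars are the taller.

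The count of TAP1 was 3.03, 2.76 and 2.48 times that of TAP2 in NC and 2.10, 2.46 and 2.03 times in OE, each OE sample below each NC sample. The log2 difference of the ratio was −0.33 (exact two-sided permutation p = 0.1, the smallest possible, and 0.17 after Benjamini-Hochberg adjustment over 5 ratios). Against the sum of TAP2 and ENSG00000250264 the ratio was 0.278 ± 0.0123 (SD, n = 3) in NC, against 0.232 ± 0.00948 (SD, n = 3) in OE, a log2 difference of −0.26 (exact permutation p = 0.1).

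TAPBP encodes tapasin, which bridges TAP and the heavy chain and edits the bound peptides. It had 55.7, 55.7 and 54.3 CPM in NC and 55.2, 58.9 and 51.9 in OE. NC replicates lay within the range of the OE replicates. The log2FC was 0.00 with a 95% interval of −0.12 to 0.12 (adjusted p = 0.96 from edgeR), and its sign turned in 4 of the 15 alternative fits. TAPBP (ENSG00000231925.12) is at 33299694 to 33314284 on the minus strand of chromosome 6.

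PSMB8 and PSMB9 encode the catalytic subunits LMP7 and LMP2, which take the places of PSMB5 and PSMB6 in the immunoproteasome and favour peptides that fit class I. PSMB8 had 98.4, 89.2 and 104 CPM in NC and 106, 107 and 94.4 in OE, with groups that overlapped (log2FC 0.08, 95% interval −0.05 to 0.21, adjusted p = 0.31 from edgeR). PSMB9 had 18.6, 18.1 and 16.7 CPM in NC and 24.1, 21.6 and 18.2 in OE. OE replicate 3 lay within the NC range, while the other OE samples were above it. The log2FC was 0.26 (standard error 0.09, adjusted p = 0.023 from edgeR). The call was lost in 5 of the 15 alternative fits, with a log2FC of 0.17 and an adjusted p of 0.15 without OE replicate 1, and an adjusted p of 0.090 without NC replicate 3 and 0.051 without OE replicate 2.

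Each inducible subunit was set against the one it replaces, as a ratio of counts within the sample. PSMB8 was 1.31, 1.31 and 1.49 times PSMB5 in NC and 1.77, 1.74 and 1.67 times in OE. The groups did not overlap, and the ratio was 1.26 times as high in OE (log2 difference 0.34, exact two-sided permutation p = 0.1, adjusted 0.17 over 5 ratios). PSMB5 itself fell, from 71.1 ± 3.74 CPM (SD, n = 3) to 59.4 ± 2.60 (SD, n = 3), a log2FC of −0.26 (adjusted p = 0.00069 from edgeR). PSMB9 was 0.331, 0.354 and 0.330 times PSMB6 in NC and 0.449, 0.382 and 0.357 times in OE, a log2 difference of 0.22 (exact permutation p = 0.1, adjusted 0.17), which was 0.13 without OE replicate 1. PSMB6 had a log2FC of 0.03 (adjusted p = 0.70 from edgeR). PSMB10, the third inducible subunit, was 0.104 ± 0.0123 (SD, n = 3) times PSMB7 in NC, against 0.0971 ± 0.00731 (SD, n = 3) times in OE, with overlap (log2 difference −0.09, exact permutation p = 0.5, adjusted 0.63). Both PSMB10, with a log2FC of 0.27 (adjusted p = 0.030), and PSMB7, with 0.36 (adjusted p = 6.7e-06, both from edgeR), rose. For PSMB10 the call was lost in 6 of the 15 alternative fits, without NC replicate 1 (adjusted p = 0.15), NC replicate 2 (0.098) or OE replicate 1 (0.18, with a log2FC of 0.17) among them.

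**Figure D4:**
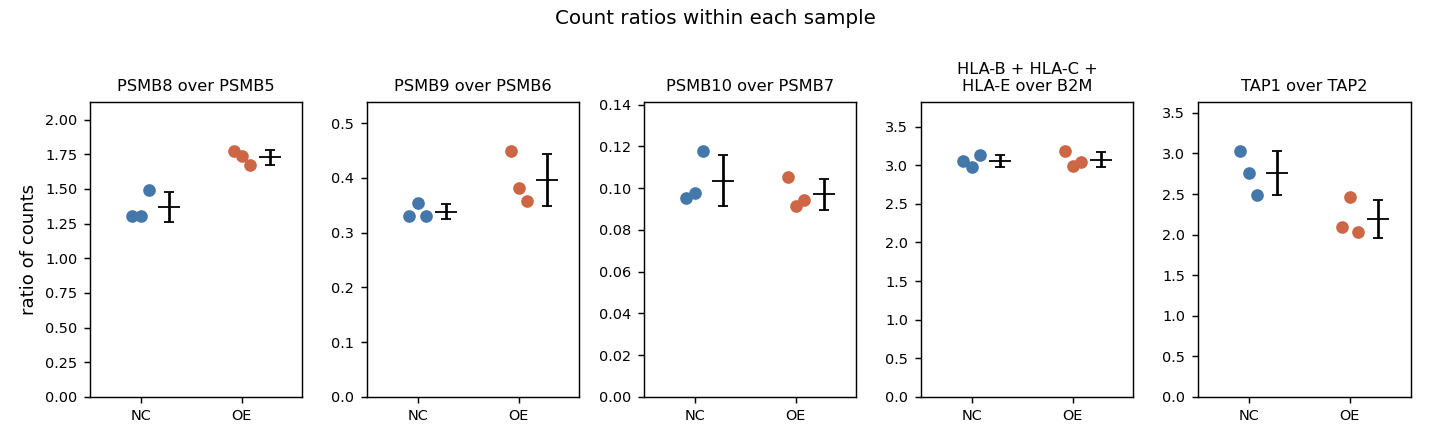
Ratio of deposited counts within each sample for 5 pairs, with 1 point per sample, the mean ± SD (n = 3) beside each group and axes from 0. PSMB8 over PSMB5 was 1.31 to 1.49 in NC and 1.67 to 1.77 in OE, while the heavy chains over B2M were near 3.06 in both groups.

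TAP2, PSMB8, TAP1 and PSMB9 lie side by side within 38019 bases of chromosome 6 in GENCODE release 44. PSMB8 (ENSG00000204264.12) is at 32840717 to 32844679 and TAP1 (ENSG00000168394.12) at 32845209 to 32853816, both on the minus strand, and PSMB9 (ENSG00000240065.8) at 32844136 to 32859851 on the plus strand. In the RefSeq promoter table the starts of TAP1 and PSMB9, which are read away from each other, are 488 bases apart. In GENCODE the gene PSMB9 overlaps PSMB8, PSMB8-AS1 and TAP1. PSMB8-AS1, named here after its values were seen, had 4.37, 3.55 and 3.81 CPM in NC and 5.31, 4.48 and 4.60 in OE (log2FC 0.29, adjusted p = 0.082 from edgeR). The libraries were stranded, but no source used here says if reads were counted by strand, so the counts of these overlapping genes are uncertain.

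Promoter sequence was taken from RefSeq on GRCh38.p14, from 250 bases before to 50 after each start. It matched 8 of the 9 genes, with 10 windows. The interferon-stimulated response element, searched on both strands as GAAA, any 2 bases and GAAA, was in 5 of the 10 windows, those of B2M, TAP1, TAP2, TAPBP and PSMB8, and in 3.57% of 35114 promoters. The NF-kB consensus was in 5 of the 10, those of HLA-B, HLA-C, B2M, TAP1 and TAPBP, and in 11.3% of all. The interferon gamma element GAS, searched as TTCNNNGAA, was in 2 of the 10, of TAP1 and PSMB8 (7.66% of all), and CCAAT in 5 of the 10 (34.6% of all). A match of letters is a description and not a site of binding. The response element is shown in capitals, with its surroundings, on the strand of the gene, since interferon control is what these genes are known for and the matched genes include 2 that rose and 3 that did not pass the test. Overlapping matches are run together, and TTTC repeats are the same element on the other strand.
TAP2, chr6:32838778-32838807, minus strand: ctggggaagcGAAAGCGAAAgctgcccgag
TAP1, chr6:32853816-32853845, minus strand: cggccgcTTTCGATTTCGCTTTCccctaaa
PSMB8, chr6:32844032-32844061, minus strand: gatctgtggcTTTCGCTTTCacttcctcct
TAPBP, chr6:33314076-33314105, minus strand: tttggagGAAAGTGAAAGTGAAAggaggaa
B2M, chr15:44711366-44711395, plus strand: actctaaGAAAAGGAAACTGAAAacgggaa

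HLA-B and HLA-C share an NF-kB consensus at nearly the same distance from the start, 177 and 172 bases before it. It is shown in capitals, since these 2 genes are neighbours in sequence as well as on the chromosome and both overlapped between the groups.
HLA-B, chr6:31357337-31357366, minus strand: gcgcagcgttGGGGATTCCCCactcccctg
HLA-C, chr6:31272245-31272274, minus strand: cgccgcgttgGGGATTCTCCactcccctga

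The response element began 58 bases before the start in TAP2, 134 in TAP1, 4 in PSMB8, 20 in TAPBP and 144 in B2M. In the same order the log2FC values were 0.53, 0.20, 0.08, 0.00 and −0.02, and TAP2 and TAP1 passed the test. PSMB9, which rose with a log2FC of 0.26, had no match in its window. A link between the element and the change was not tested.

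Among the other class I and class I-like heavy chains reported here, 0 of 4 tested genes rose and 1 fell in edgeR, with a median log2FC of −0.04. The share called was 25%, beside 48.6% of all tested genes in either direction. HFE, a class I-like regulator of iron uptake, fell from 7.20 to 4.95 CPM (log2FC −0.54, adjusted p = 0.0016 from edgeR). HLA-F and MR1, which presents vitamin metabolites, had log2FC values of 0.03 and −0.07 and did not pass the test.

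Of 8 tested genes for peptide loading, trimming and export, 3 fell (37.5%) and 5 did not pass the test, and the median log2FC was −0.05. Of all tested genes, 23.7% fell and 48.6% were called in either direction. CALR, which encodes the chaperone calreticulin, had 3621, 3506 and 3536 CPM in NC and 2241, 2084 and 1942 in OE. PDIA3, which encodes ERp57, had 489, 470 and 490 CPM in NC and 296, 298 and 288 in OE. In both genes each OE sample was well below each NC sample, with log2FC values of −0.77 (adjusted p = 8.6e-10) and −0.72 (adjusted p = 1.3e-10, both from edgeR). TAPBPL, a second peptide editor related to tapasin, fell by 0.34 on the log2 scale, from 17.1 to 13.5 CPM (adjusted p = 0.0014 from edgeR). ERAP1, an aminopeptidase that trims peptides in the ER, had a log2FC of 0.13 (adjusted p = 0.086 from edgeR). CALR and PDIA3 also serve the folding of many glycoproteins beside class I.

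For the proteasome, 1 of the 4 tested inducible partners of the proteasome rose, PSMB10, and 1 fell, the activator subunit PSME1 (log2FC −0.20, adjusted p = 0.0059), while PSME2, its partner in the same ring, had 0.02 (adjusted p = 0.83, both from edgeR). POMP, a chaperone of proteasome assembly, had −0.02, and the median was −0.00. Of the 5 constitutive counterparts, PSMB7 rose and PSMB5 fell, and the median log2FC was 0.00. In either direction, 50% of the inducible partners and 40% of the constitutive counterparts were called, beside 48.6% of all tested genes. PSME3, a nuclear activator, had −0.10 (adjusted p = 0.089 from edgeR). Of 7 peptidases outside the ER that trim or destroy peptides, 2 fell (28.6%, beside 23.7% of all tested genes) and 5 did not pass, with a median of −0.15. These were the cytosolic NPEPPS (log2FC −0.36, adjusted p = 6.1e-06) and LNPEP, a membrane enzyme of endosomes (−0.46, adjusted p = 0.00013, both from edgeR). TPP2 and IDE had −0.18 (adjusted p = 0.058) and −0.15 (adjusted p = 0.10, both from edgeR).

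The regulators of class I genes changed in both directions. Of the 13 tested genes reported here, 5 rose, 6 fell and 2 did not pass, so that 84.6% were called beside 48.6% of all tested genes, and the median log2FC was −0.13. JAK1, a kinase of the interferon receptors, fell from 282 ± 10.7 CPM (SD, n = 3) to 201 ± 14.5 (SD, n = 3), with a log2FC of −0.49 (adjusted p = 2.6e-07 from edgeR). RFX5, which binds class I and class II promoters, fell by 0.44 on the log2 scale (adjusted p = 6.1e-07 from edgeR). STAT2, a transcription factor of the response to type I interferon, had 21.3, 23.3 and 21.1 CPM in NC and 18.0, 16.1 and 17.6 in OE, and its log2FC was −0.34 (adjusted p = 0.0011 from edgeR). In the other direction, IRF1, which binds the response element shown above, had 83.9, 83.8 and 84.2 CPM in NC and 113, 121 and 108 in OE, a log2FC of 0.44 (adjusted p = 6.7e-07 from edgeR). NLRC5, the transactivator of class I genes, had 6.47, 6.56 and 5.78 CPM in NC and 7.72, 7.41 and 8.04 in OE, a log2FC of 0.30 (adjusted p = 0.027 from edgeR), and was named after its values were seen. JAK2, the partner kinase of JAK1 at the receptor of interferon gamma, had 1.84, 1.65 and 2.28 CPM in NC and 2.60, 3.24 and 3.83 in OE (log2FC 0.74, standard error 0.19, adjusted p = 0.0024 from edgeR). The receptor subunits IFNAR1 (log2FC 0.30, adjusted p = 0.0017) and IFNGR2 (0.20, adjusted p = 0.019) rose, while IFNAR2 (−0.26, adjusted p = 0.0016) and IFNGR1 (−0.21, adjusted p = 0.019, all from edgeR) fell. These 5 were named after their values were seen. Both the receptors and the factors below them thus had members in each direction.

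**Figure D5:**
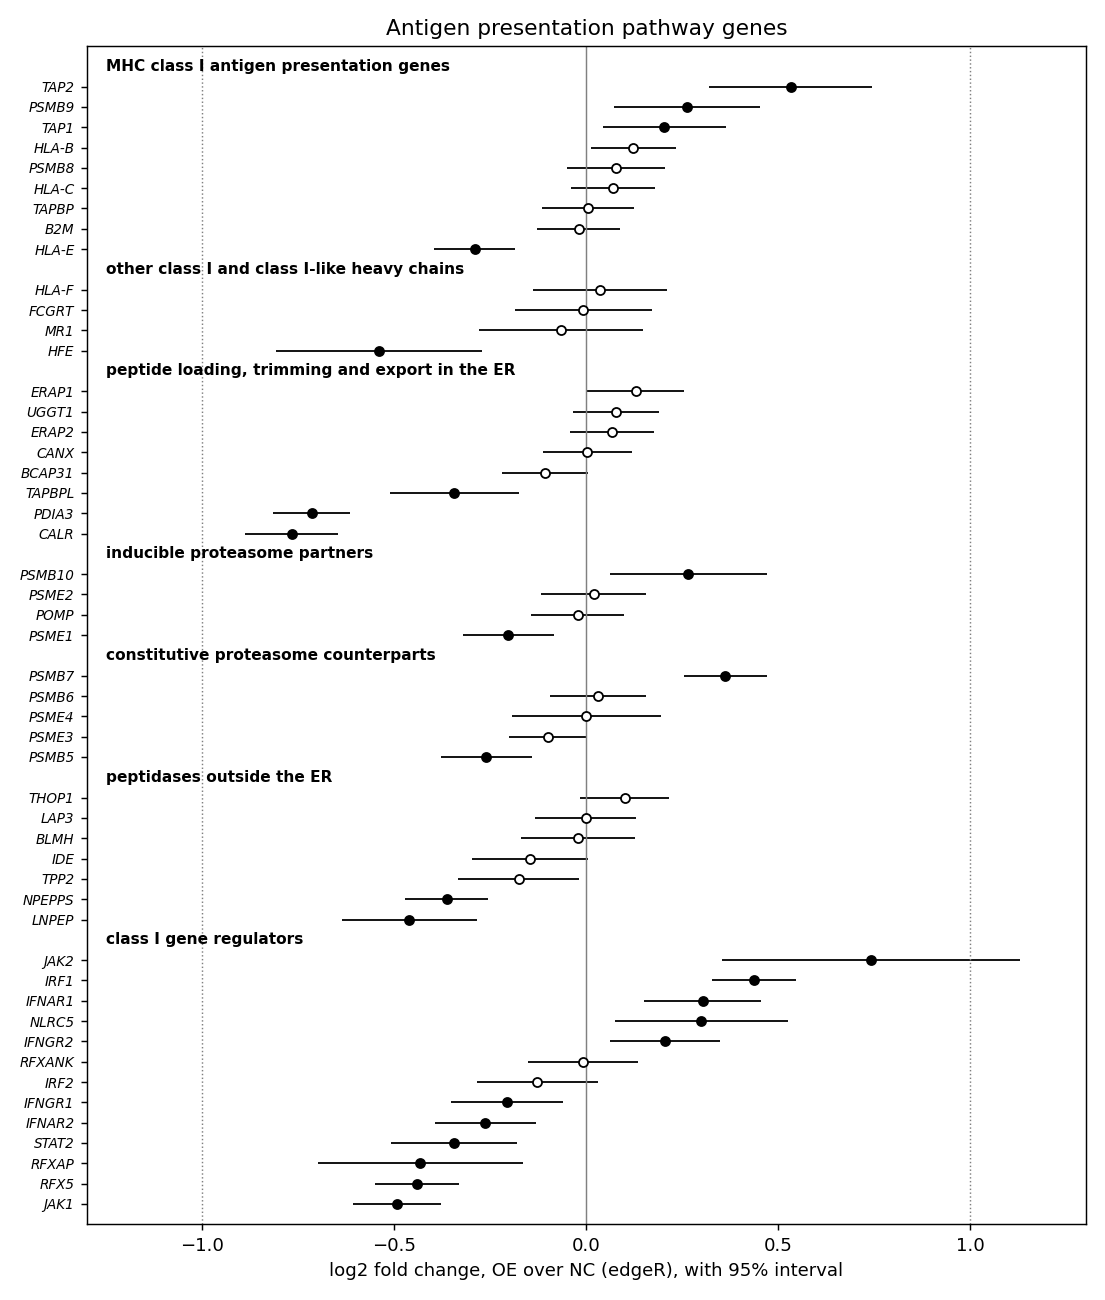
Log2FC with its 95% interval (horizontal axis) for the tested genes of each list, filled where the adjusted p was under 0.05; dotted lines mark a fold change of 2. HLA-E at −0.29 and TAP2 at 0.53 mark the ends of the 9 class I genes, while CALR at −0.77 and PDIA3 at −0.72 lie further out.

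Class II molecules present peptides to helper T cells. Of 8 listed genes, 7 were measured and 3 tested, and the presenting chains HLA-DRB1, HLA-DPA1 and HLA-DPB1 had at most 3 counts in any sample. CD74, the invariant chain, had 155 ± 9.88 CPM (SD, n = 3) in NC, against 150 ± 6.69 (SD, n = 3) in OE (log2FC −0.05, adjusted p = 0.52 from edgeR). HLA-DMB, a subunit of the class II peptide editor, rose from 56.2 ± 2.24 CPM (SD, n = 3) to 70.2 ± 4.17 (SD, n = 3), with a log2FC of 0.32 (adjusted p = 9.9e-05 from edgeR), whereas its partner HLA-DMA had 1.64 and 1.12 CPM and did not pass the test. Both HLA-DMB and HLA-DMA overlap another annotated gene, ENSG00000248993. How reads were shared with it was not tested, so the levels of these partners are uncertain. CIITA, the transactivator of class II genes, had 0.237 CPM in NC and 0.206 in OE.

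Over the 6 samples, the mean of the centred log2 CPM of the 9 genes was lowest in NC replicate 2, at −0.11, and highest in OE replicate 2, at 0.09. With other genes limited to those averaging 100 counts or more, 4 of the 5 genes whose log2 CPM followed this mean most closely over the 6 samples were AURKAIP1 (Pearson's r 0.996), ADCK2 (0.996), MANBAL (0.995) and TUBB (0.994). The points share libraries and depth, and a high r is easily reached over 6 samples among so many genes. The log2FC values of these 4 genes were between 0.08 and 0.34.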

How the data were processed

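RNA from 6 samples of HK-2 cells, 3 NC and 3 OE, was sequenced by the authors with stranded mRNA libraries. The authors trimmed the reads with FASTX-Toolkit, used HISAT2 for alignment (GRCh38) and kept reads with a unique position, which gave the deposited counts. The deposited FPKM values were computed by the authors from the same reads. The submitters' processing notes also list a mouse build, but the gene IDs are human. Counter and annotation are not given in the sources used here. Groups came from the genotype entries of the labels and replicate numbers from the titles.

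From the counts, edgeR 4.0.16 in R 4.3.3 was run with filterByExpr, TMM and the quasi-likelihood test, adjusted by Benjamini-Hochberg over 15878 genes. CPM is relative to the TMM-scaled library size. The scripts were tested on simulated data. DESeq2 1.42.0, limma 3.58.1 on log2(FPKM + 1) and log2(FPKM + 0.1), other scalings and filters, a replicate block and each sample left out were alternatives. Summing TAP2 with ENSG00000250264 was added after the data had been seen. Replicates were not copies, since the mean chi-square per gene between them was 5.12 to 11.7. The 95% intervals of log2 fold changes are not adjusted for multiple testing. Members and lists were chosen with earlier results of these data known. Genes named are *PPM1K*, the 9 genes, those of the 5 ratios, up to 4 genes with the smallest p of each list and the 5 most alike in pattern, of which some are not reported here, also not in the list counts, and others are named as examples after their values were seen.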

Additional observations from a re-analysis of the deposited data

How the results depend on the processing

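HLA-E and TAP2 kept their direction and their call in all 15 alternative fits. The number of the 9 genes that rose, 3, was 1 with limma on log2(FPKM + 1) and 1 with limma on log2(FPKM + 0.1). It was 2 with the DESeq2 Wald test, 2 with upper quartile scaling and 1 to 3 with a sample left out, being 1 without NC replicate 3 and 1 without OE replicate 2. The study used DESeq2 and names the Wald test or the likelihood ratio test without saying which was applied. The number that fell was 1 throughout. Over all genes, 7715 passed in the main fit and 5491 to 7719 in the alternatives. The log2 fold change of B2M was between −0.061 and 0.0074, above 0 without NC replicate 1 (0.0059) or OE replicate 3 (0.0074), and TAPBP was below 0 with at least 10 counts in every sample (−0.0024), with upper quartile scaling (−0.034), without NC replicate 3 (−0.0044) and without OE replicate 2 (−0.041), with 0.045 as its highest value. With a sample left out, the log2 difference of PSMB10 over PSMB7 was between −0.15 and 0.0047 and that of the heavy chains over B2M between −0.018 and 0.027. Same-numbered NC and OE samples showed no shared variation: the correlations of their deviations were −0.01, −0.13 and −0.13, against −0.04 to 0.16 for the other pairs. With 3 samples per group, this cannot show whether samples were prepared in pairs. Under the block, 2 of the 9 genes rose, TAP1 having an adjusted p of 0.059 from edgeR, and 1 fell. In the ratios the block cannot change the log2 differences, since the mean of the paired differences equals the difference of the group means. The exact sign-flip p was at least 0.25, the smallest that 3 pairs allow. The cause of the lost calls was not tested. At 256 to 447 counts, TAP2 had the lowest depth of the 9 genes.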
